A study of Mus musculus with 116 samples.

Results

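The upper-layer projection neuron genes described here are 9 named genes of 53379 in the count tables: Cux1, Cux2, Pou3f1, Pou3f2, Pou3f3, Rorb, Mef2c, Unc5d and Inhba. They were taken by name, as genes of the neurons that settle in cortical layers 2 to 4, with no threshold on their measured values, and earlier results of these data were known when they were chosen. RNA of fluorescent cells sorted from mouse neocortex was read out by Smart-Seq2, a full-length method of bulk RNA-seq, in mosaic analysis with double markers (MADM), which marks single cells of a tissue in green, red or yellow and can give each color its own genotype. In control-MADM (MADM7-GT/TG;Emx1-cre) every cell was Eed+/+. In Eed-MADM (MADM7-GT/TG,Eed;Emx1-cre) the sparse green cells were Eed-/- in a tissue that was mostly Eed+/-, while red cells were Eed+/+ and yellow cells Eed+/-. In cKO-Eed-MADM (MADM7-GT,Eed/TG,Eed;Emx1-cre) all cells made by cortical progenitors lacked Eed, whatever their color. All mice carried the MADM cassettes on chromosome 7 and Emx1-Cre, whose recombinase acts in the progenitors of cortical projection neurons and glia but not in most interneurons, microglia, vessels or meninges. Cortices were taken at embryonic day (E) 12.5, E13.5, E16.5 and at birth (postnatal day 0, P0), and 2 to 3 of them were pooled for a sample. The labels give the strain as CD1 and the embryonic ages as E12, E13 and E16. Libraries are thus pools of animals, and p-values measure the spread between such pools.

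Upper-layer neurons of the neocortex are born late from radial glial progenitors, after the deep-layer neurons, and mostly send their axons to other cortical areas. Their identity rests on a set of transcription factors, and their migration and wiring on guidance receptors and secreted signals. EED is a core subunit of Polycomb repressive complex 2 (PRC2), which places a repressive methyl mark on histone H3, most often at CG-rich gene starts.

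Of the 9 genes, 7 encode transcription factors. Cux1 (ENSMUSG00000029705.17, chr5:136248135-136567490, minus strand) and Cux2 (ENSMUSG00000042589.18, chr5:121856366-122050102, minus strand) encode Cut-type homeobox factors that shape the dendrites and synapses of layer 2 to 4 neurons. Pou3f1 (ENSMUSG00000090125.3, chr4:124656807-124660655, plus strand), Pou3f2 (ENSMUSG00000095139.2, chr4:22482780-22488366, minus strand) and Pou3f3 (ENSMUSG00000045515.3, chr1:42695768-42703176, plus strand) are genes of 1 exon that encode POU-domain factors, and Pou3f2 and Pou3f3 act together in the production and migration of upper-layer neurons. Rorb (ENSMUSG00000036192.15, chr19:18930605-19111196, minus strand) encodes an orphan nuclear receptor typical of layer 4. Mef2c (ENSMUSG00000005583.16, chr13:83504034-83667080, plus strand) encodes a MADS-box factor of maturing neurons, and it is also expressed in microglia and endothelial cells. Unc5d (ENSMUSG00000063626.6, chr8:28646717-29219636, minus strand) encodes a receptor of the netrin receptor family that is found on migrating upper-layer neurons. Inhba (ENSMUSG00000041324.14, chr13:16011851-16031621, plus strand) encodes the subunit of activin A, a secreted ligand of the TGF-beta family. Coordinates and exons are those of GENCODE M21 on GRCm38 (mm10), and the counts cover the exons of each gene.

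Other annotated genes overlap some of these, and the counts do not use strand. Gm16599 shares 394 exonic bases with Cux1 on the opposite strand, with at most 8 reads in a library, and Gm2164 shares 330 with Pou3f1, with at most 3. The rest overlap a gene without sharing an exonic base. For Cux1 these were A430110C17Rik, Mir721 and Gm38082 (at most 47, 2 and 168 reads), and for Cux2 Gm3970 and Gm15637 (39 and 12). AC122898.1 overlaps Pou3f3 (64). Gm9911, Gm45652 and Svet1 overlap Unc5d (118, 107 and 192), and B230303A05Rik and Gm48444 overlap Inhba (12 and 3).

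Because PRC2 is known to act at CG-rich gene starts, the 250 bases before a start of transcription are shown for 3 of these genes. They were read from RefSeq (GRCm38.p6), which gave windows for 7 of the genes. The window of Cux2 shown here and that of Cux1 lie inside the gene as annotated in GENCODE M21, whose start is further upstream. Shown are the gene with the most CG dinucleotides among these 7 (Cux2, chr5:122049852-122050101, minus strand), 1 POU-domain gene (Pou3f3, chr1:42695518-42695767, plus strand) and the layer 4 gene (Rorb, chr19:19111197-19111446, minus strand). Each is written 5′ to 3′ on the strand of its gene, and capitals mark the CG dinucleotides.
Cux2: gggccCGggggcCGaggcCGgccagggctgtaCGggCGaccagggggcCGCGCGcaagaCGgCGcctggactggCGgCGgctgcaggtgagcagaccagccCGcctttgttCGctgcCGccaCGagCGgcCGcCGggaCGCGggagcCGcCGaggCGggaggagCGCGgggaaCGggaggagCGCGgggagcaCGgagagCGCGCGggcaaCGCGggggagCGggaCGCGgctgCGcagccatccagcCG
Pou3f3: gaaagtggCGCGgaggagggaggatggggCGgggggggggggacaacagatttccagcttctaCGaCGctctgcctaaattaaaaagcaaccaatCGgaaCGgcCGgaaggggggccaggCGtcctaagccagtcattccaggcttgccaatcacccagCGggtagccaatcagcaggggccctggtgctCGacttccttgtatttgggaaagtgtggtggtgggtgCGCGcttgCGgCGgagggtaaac
Rorb: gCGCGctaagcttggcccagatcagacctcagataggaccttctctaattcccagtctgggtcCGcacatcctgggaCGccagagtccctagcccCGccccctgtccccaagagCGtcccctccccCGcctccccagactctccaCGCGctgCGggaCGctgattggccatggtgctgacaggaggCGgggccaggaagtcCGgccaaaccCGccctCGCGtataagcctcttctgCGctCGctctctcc
The window of Cux2 shown here held 40 CG dinucleotides, a number that 1.31% of the 32851 gene starts in the reference table reach. The windows of Cux1 and Pou3f2 and that of Rorb shown here each held 18, which 21.7% of all starts reach, and that of Pou3f3 held 15, which 27.3% reach. A further start of Cux2 had 3 and one of Rorb had 4, the start of Inhba had 3, and the 3 starts of Mef2c had 1, 4 and 6, against a median of 6 over all starts. The reference held no window of Pou3f1 or Unc5d, so the starts of these 2 genes were not described.

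Green libraries were used where at least 1000000 reads, and at least 60% of all reads, aligned to 1 place. The paper also removed libraries for low correlation with replicates and for many reads in the deleted part of Eed. Neither criterion was applied here, and more green libraries were kept than in the paper. The libraries that pass the 2 limits on reads were used. These were 55 of the 68 green libraries (of 116 in all): E12.5 had 5 of control-MADM, 8 of Eed-MADM, 4 of cKO-Eed-MADM, E13.5 had 2, 2 and 4 in this order, E16.5 had 3, 5 and 4, and P0 had 5, 9 and 4. Reads on genes ran from 865832 to 2359317 per library at E12.5 and from 2784557 to 7249098 at the later ages. Among the used libraries, Eed-MADM replicate 9 at E12.5 stood apart, with a median correlation of 0.712 with the other libraries of its group, and leaving it out changed no call of the 9 genes. At E12.5 the sort went straight into a lysis buffer, and at later ages into a buffer for RNA extraction, so that age and handling cannot be told apart there. The targeted gene, Eed, averaged 41.6 CPM (counts per 1000000 reads on genes) in control-MADM at E16.5, with 17.9 CPM for Eed-MADM and 18.7 CPM for cKO-Eed-MADM, and 29.8, 15.5 and 11.7 CPM at P0, with no overlap between control-MADM and either mutant at these 2 ages. At E13.5 it was 65.1 CPM against 40.4 CPM in Eed-MADM and 21.1 CPM in cKO-Eed-MADM, also without overlap. At E12.5 it was 102 CPM against 57.1 and 39.6 CPM, and 2 of the 8 Eed-MADM libraries overlapped with control-MADM. These counts cover the whole gene, of which only a part is deleted. All 4 cKO-Eed-MADM libraries held less Eed RNA than both Eed-MADM libraries at E13.5, while these 2 paradigms overlapped at the other ages. How completely Eed was deleted in the sorted cells was not tested here. Emx1, which marks the cortical lineage, was at 173 CPM in control-MADM and 52.0 CPM in cKO-Eed-MADM at E16.5.

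**Figure D1:**
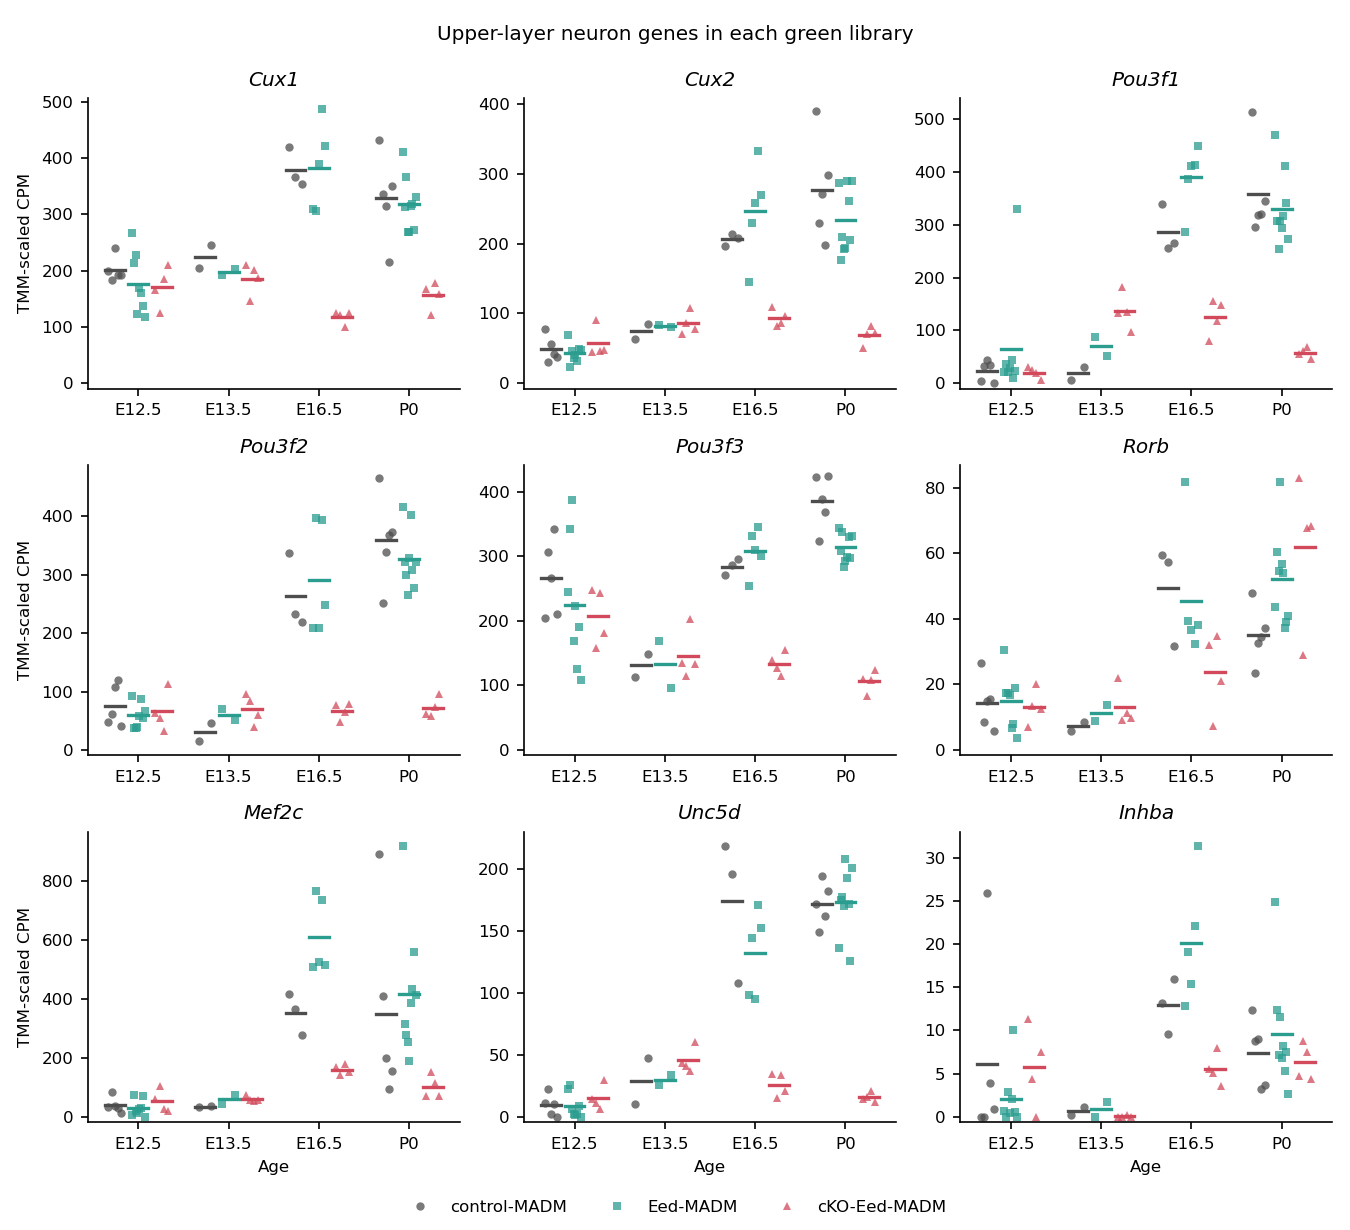
Level of each of the 9 genes in every green library (TMM-scaled CPM, linear axis) by age, with 1 point per library and a dash at the mean of the group (dark gray control-MADM, green Eed-MADM, red cKO-Eed-MADM). At E16.5 all cKO-Eed-MADM points lie below all control-MADM points for 8 of the 9 genes, all but Rorb (10.3% of all genes), and at P0 for 6 (7.58% of all genes). Eed-MADM and control-MADM overlap for all 9 at P0, where the share of all genes is not given.

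In control-MADM cells the 9 genes were higher at E16.5 than at E13.5, when their means ran from 0.659 CPM (Inhba) to 131 CPM (Pou3f3) and 225 CPM (Cux1). E16.5 is an age at which upper-layer neurons migrate. Levels are given as CPM scaled by TMM over all green libraries, which sets the 9 genes of a library on one scale, and fold changes are from edgeR. Between E13.5 and E16.5 all 9 genes rose (edgeR, adjusted p under 0.05), where 8.44% of all 13926 genes tested rose. The log2 fold change was 3.92 (SE 0.41, adjusted p = 9.10e-08) for Pou3f1, 3.33 (SE 0.66, adjusted p = 0.000685) for Mef2c, 3.04 (SE 0.38, adjusted p = 5.70e-07) for Pou3f2 and 0.73 (SE 0.22, adjusted p = 0.0204) for Cux1, the smallest. Inhba, with 1 and 7 reads in the 2 control-MADM libraries at E13.5, rose by a fitted 4.17 (SE 0.92, adjusted p = 0.00146), a value that few reads support. The call of Cux1 was lost without control-MADM replicate 1 at E13.5 (0.60, adjusted p = 0.270) or replicate 1 at E16.5 (0.66, adjusted p = 0.0736), and that of Inhba without the former (3.49, adjusted p = 0.0737). With all green libraries Cux1 (1.13, adjusted p = 0.102) and Cux2 (0.74, adjusted p = 0.219) lost the call, as did Cux1 with E12.5 in the fit (adjusted p = 0.0628). The 2 libraries at E13.5 were not alike, and replicate 3 had the higher level of all 9 genes. For Pou3f1 they held 6.03 and 30.7 CPM, for Unc5d 10.4 and 47.9 CPM.

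From E16.5 to P0 the levels in control-MADM did not pass the test for any of the 9 genes, where 14.1% of all genes did in either direction. At an unadjusted p under 0.05 it was 2 of them (Cux2 and Pou3f3). DESeq2 called 1 of the 9, Pou3f3, and 2375 of all 13926 genes. For counts at an unadjusted p, here and below, the share of all genes was not computed. Pou3f3 also passed in edgeR without control-MADM replicate 2 at P0 (0.52, adjusted p = 0.0394). The largest of the changes that point up were those of Pou3f2 (0.47, SE 0.27, adjusted p = 0.265) and Pou3f3 (0.46, SE 0.17, adjusted p = 0.0605) on the log2 scale. Against E13.5, all 9 were higher at P0, where 14.9% of all genes were, from 0.54 (Cux1, SE 0.20, adjusted p = 0.0481) to 4.26 (Pou3f1, SE 0.40, adjusted p = 4.28e-10). Leaving out either library of E13.5 or any of 4 of those of P0 (all but replicate 5) ended the call of Cux1 (adjusted p from 0.0544 to 0.371), and without replicate 1 at E13.5 that of Inhba also was lost (2.71, adjusted p = 0.105). The call of Cux1 was lost as well without the filter on counts (adjusted p = 0.107), and those of Cux1 and Inhba with E12.5 in the fit (adjusted p = 0.1096 and 0.0653).

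Counts rise with the length of a gene, so levels were compared between genes as CPM per kb of exon. At P0 in control-MADM these were 93.3 ± 23.0 for Pou3f1, 64.4 ± 13.8 for Pou3f2 and 52.0 ± 5.70 for Pou3f3 (mean ± SD, n = 5 libraries). Next came Cux2 (27.5 ± 7.32), Mef2c (22.3 ± 20.7), Unc5d (18.7 ± 1.91) and Cux1 (16.4 ± 3.89). Rorb (3.18 ± 0.80) and Inhba (1.16 ± 0.61) were the lowest. By this measure the POU-domain genes stood highest. The ranges of mean ± SD of neighbours in this order overlap except between Pou3f3 and Cux2, Cux1 and Rorb, and Rorb and Inhba. The length counts all annotated exons of a gene, 20024 bases for Cux1, 15715 for Mef2c and 3849 for Pou3f1. For genes with several transcripts it can exceed the length of the RNA, which lowers their values against the 1-exon POU-domain genes. Before division by length the means were 329 CPM for Cux1, 350 for Mef2c, 359 for Pou3f1, 360 for Pou3f2 and 386 for Pou3f3. At E16.5 the order was the same but for Mef2c (22.5 CPM per kb) ahead of Cux2 (20.4).

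At E16.5, cKO-Eed-MADM cells held less RNA of most of these genes than control-MADM cells. Of the 9, 7 fell (edgeR, adjusted p under 0.05) where 2.42% of the 13359 genes tested did, and none rose, where 6.16% did, and their median log2 fold change was -1.15 against 0.00 over all genes. All 4 cKO-Eed-MADM libraries lay below all 3 control-MADM libraries for 8 genes, as they did for 10.3% of all genes. In bulk RNA, fewer cells of a type and less RNA per cell cannot be told apart.

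Among the homeobox genes, Cux1 was at 419, 366 and 353 CPM in control-MADM and at 124, 120, 100 and 124 CPM in cKO-Eed-MADM. The mutant libraries lay within a narrow band at 30.9% of the control mean, a log2 fold change of -1.65 (SE 0.16, adjusted p = 2.62e-06). Cux2 was at 197, 214 and 207 CPM against 109, 82.2, 86.1 and 95.7 CPM, again without overlap (-1.10, SE 0.20, adjusted p = 0.00111).

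The 3 POU-domain genes fell together. Pou3f1 was at 339, 256 and 265 CPM in control-MADM and at 80.6, 156, 119 and 147 CPM in cKO-Eed-MADM (-1.15, SE 0.19, adjusted p = 0.000606). Pou3f2 was at 337, 233 and 219 CPM against 76.9, 48.6, 65.5 and 79.2 CPM, and its fold change was the largest of the 3 (-1.92, SE 0.24, adjusted p = 3.52e-05). Pou3f3 held 270, 286 and 295 CPM against 139, 126, 115 and 155 CPM (-1.04, SE 0.14, adjusted p = 6.01e-05). For each of the 3 genes every mutant library was below every control library.

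The migration receptor gene Unc5d had the largest fold change of the 9. Its level was 219, 197 and 109 CPM in control-MADM and 34.5, 15.2, 33.4 and 20.5 CPM in cKO-Eed-MADM, 14.8% of the control mean (-2.71, SE 0.29, adjusted p = 7.91e-06). Mef2c fell from 417, 365 and 276 CPM to 168, 140, 179 and 153 CPM (-1.10, SE 0.17, adjusted p = 0.000245). Rorb and Inhba, the genes with the lowest counts, did not pass the test. Rorb was at 59.5, 57.4 and 31.9 CPM in control-MADM and 32.0, 7.35, 34.8 and 20.9 CPM in cKO-Eed-MADM, with overlap (-1.02, adjusted p = 0.158). Inhba was at 13.2, 9.62 and 15.9 CPM against 5.58, 5.13, 7.97 and 3.62 CPM, without overlap (-1.17, adjusted p = 0.0897).

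At P0 the difference between cKO-Eed-MADM and control-MADM reached 3.42 log2 units for Unc5d, and Rorb was now the exception in the other direction. Of the 9 genes, 7 fell, where 10.0% of the 14161 genes tested did, and 1 rose, where 14.2% did. The median log2 fold change of the 9 was -1.84, against -0.01 over all genes. All 4 mutant libraries lay below all 5 control libraries for 6 genes (Cux1, Cux2, the POU-domain genes and Unc5d), as for 7.58% of all genes.

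Cux1 was at 432, 336, 314, 215 and 350 CPM in control-MADM and at 167, 120, 177 and 159 CPM in cKO-Eed-MADM (-1.07, SE 0.17, adjusted p = 4.29e-05). Cux2 was at 390, 229, 271, 198 and 298 CPM against 51.0, 70.5, 82.0 and 72.2 CPM (-1.99, SE 0.20, adjusted p = 1.36e-07). The homeobox genes thus stood at 47.3% and 24.9% of their control means.

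Pou3f1 held 514, 295, 319, 321 and 345 CPM in control-MADM and 55.8, 61.1, 68.0 and 45.3 CPM in cKO-Eed-MADM, 16.03% of the control mean (-2.63, SE 0.20, adjusted p = 1.25e-09). Pou3f2 held 466, 251, 338, 369 and 374 CPM against 60.9, 58.0, 74.1 and 95.3 CPM (-2.31, SE 0.18, adjusted p = 2.70e-09). Pou3f3 held 423, 323, 389, 368 and 424 CPM against 110, 83.8, 109 and 124 CPM (-1.84, SE 0.13, adjusted p = 2.65e-10). The lowest control library of each POU-domain gene was more than 2 times as high as its highest mutant library.

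Unc5d was at 172, 149, 195, 163 and 183 CPM in control-MADM and at 14.6, 16.1, 20.9 and 12.1 CPM in cKO-Eed-MADM, 9.25% of the control mean (-3.42, SE 0.19, adjusted p = 6.05e-12). A second RNA of the locus, Svet1, which lies inside Unc5d on the same strand and marks the subventricular zone, averaged 12.9 ± 8.12 CPM in control-MADM (mean ± SD, n = 5), 23.7 ± 7.33 CPM in Eed-MADM (n = 9) and 2.76 ± 2.58 CPM in cKO-Eed-MADM (n = 4) at P0. The 2 share no exon, but reads of an unspliced Unc5d RNA would be counted for Svet1.

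The layer 4 gene Rorb rose at P0. It was at 48.1, 23.6, 32.7, 34.4 and 37.4 CPM in control-MADM and at 83.0, 29.0, 67.7 and 68.4 CPM in cKO-Eed-MADM, where 3 of the 4 mutant libraries lay above all control libraries and 1 lay among them (log2 fold change 0.82, SE 0.26, adjusted p = 0.0207). The call was lost without cKO-Eed-MADM replicate 1 (0.66, adjusted p = 0.0934) or 3 (0.78, adjusted p = 0.0538), without control-MADM replicate 2 (0.70, adjusted p = 0.0558), and with the replicate number as a block (0.77, adjusted p = 0.0581).

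Mef2c varied most between control libraries at P0, at 891, 408, 200, 94.1 and 156 CPM, and it was at 70.2, 152, 116 and 69.9 CPM in cKO-Eed-MADM. It fell (-1.75, SE 0.58, adjusted p = 0.0372), but the groups overlapped and control replicate 1 stood far above the rest. That library held the highest level of 7 of the 9 genes among the 5 controls, and without it the fold change of Mef2c was -1.04 (adjusted p = 0.125). The call was also lost without control-MADM replicate 2 (adjusted p = 0.0571) and without cKO-Eed-MADM replicate 1, 3 or 4 (adjusted p = 0.1005, 0.0726 and 0.111). Inhba stayed low in both groups, at 12.4, 8.82, 9.06, 3.16 and 3.67 CPM and at 4.75, 8.73, 7.56 and 4.33 CPM (-0.22, adjusted p = 0.799).

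**Figure D2:**
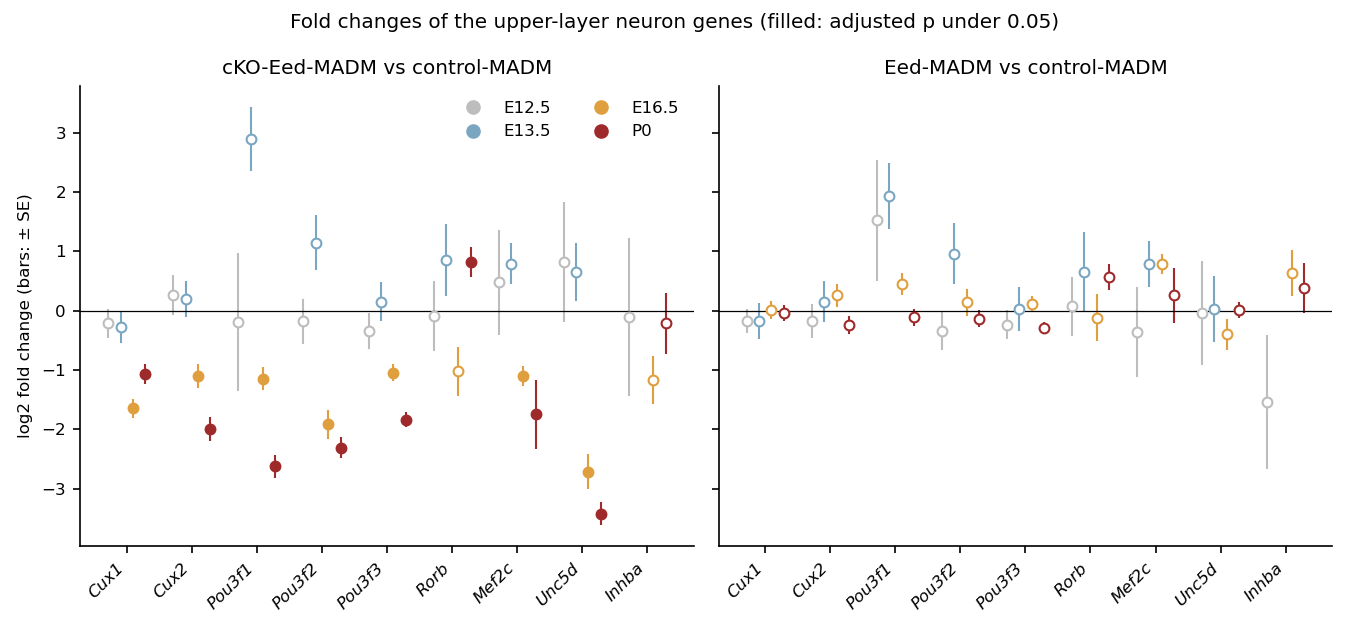
Log2 fold change of each of the 9 genes against control-MADM by age (edgeR; bars are 1 SE), with the Eed-/- cells of cKO-Eed-MADM and of Eed-MADM in separate panels and filled points where the adjusted p is under 0.05. In cKO-Eed-MADM the filled points run from -1.04 to -2.71 at E16.5 and from -3.42 (Unc5d) to 0.82 (Rorb) at P0, and no Eed-MADM point is filled.

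Sparse Eed-/- cells of Eed-MADM, which by design share their Eed genotype but not their surroundings with the green cells of cKO-Eed-MADM, gave no call against control-MADM in these genes. At no age did any of the 9 pass the edgeR test, where 0% of all genes did in either direction before E16.5, 0.255% at E16.5 and 1.75% at P0. At an unadjusted p under 0.05 the counts were 0, 1, 2 and 2 of the genes tested. DESeq2 called 0, 0, 1 and 0 of them, and 0, 40, 231 and 608 of all genes. Both mutant paradigms were compared with the same control-MADM libraries.

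At E16.5, Cux1 was at 310, 306, 389, 487 and 422 CPM in Eed-MADM and Unc5d at 98.2, 145, 95.3, 172 and 153 CPM, both around the control-MADM values. Mef2c was at 509, 765, 526, 736 and 516 CPM, so that all 5 Eed-MADM libraries lay above all 3 control-MADM libraries, as was the case for 3.85% of all genes (log2 fold change 0.79, SE 0.17, adjusted p = 0.0536). This was the call that DESeq2 made, and edgeR made it without Eed-MADM replicate 1 (0.86, adjusted p = 0.0232) or 5 (0.84, adjusted p = 0.0340). At P0 the lowest, median and highest of the 9 Eed-MADM libraries were 268, 315 and 410 CPM for Cux1, 176, 209 and 289 CPM for Cux2, and 126, 176 and 208 CPM for Unc5d. They overlapped with control-MADM for all 9 genes, and the share of all genes that overlapped is not given here. The fold changes at P0 ran from -0.29 (Pou3f3, SE 0.10, adjusted p = 0.128) to 0.57 (Rorb, SE 0.22, adjusted p = 0.182).

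The direct comparison of the 2 kinds of Eed-/- cells also put most of these genes lower in cKO-Eed-MADM. At E16.5, 8 of the 9 fell relative to Eed-MADM (all but Rorb), where 2.58% of all genes did. At P0, 7 fell (all but Rorb and Inhba), where 8.26% did. At E16.5 the fold changes of the 8 ran from -1.16 (Pou3f3, SE 0.13, adjusted p = 5.69e-06) to -2.31 (Unc5d, SE 0.27, adjusted p = 1.40e-05), with Mef2c at -1.89 (SE 0.16, adjusted p = 4.75e-07) and Inhba at -1.81 (SE 0.37, adjusted p = 0.00392). At P0 they ran from -1.02 (Cux1, SE 0.15, adjusted p = 3.65e-05) to -3.44 (Unc5d, SE 0.18, adjusted p = 6.60e-12). The call of Mef2c at P0 (-2.01, SE 0.56, adjusted p = 0.0164) was lost without cKO-Eed-MADM replicate 1 or 4 (adjusted p = 0.0547 and 0.0717). Rorb was at -0.90 (adjusted p = 0.183) at E16.5 and 0.25 (adjusted p = 0.477) at P0.

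Before E16.5 no such difference was detectable. At E12.5, with 0% of 18100 genes called in any of the 3 comparisons, no member passed the test, none had an unadjusted p under 0.05 in edgeR, and DESeq2 called none. In control-MADM at that age Cux1 averaged 201 ± 22.4 CPM and Pou3f3 266 ± 59.8 CPM (mean ± SD, n = 5), and the means of the other 7 genes ran from 6.16 CPM (Inhba) to 75.8 CPM (Pou3f2). At E13.5, where 0.0372% of 13448 genes passed the test between cKO-Eed-MADM and control-MADM, none of the 8 genes tested did. At an unadjusted p under 0.05 it was 3 (Pou3f1, Pou3f2 and Mef2c, all higher). DESeq2 called 1, Pou3f1, and 289 of the 13448 genes. Pou3f1 was at 6.03 and 30.7 CPM in control-MADM, 88.3 and 51.6 CPM in Eed-MADM and 133, 182, 136 and 96.8 CPM in cKO-Eed-MADM. All 4 cKO-Eed-MADM libraries lay above both control-MADM libraries, as they did for Rorb and Mef2c, so for 3 of the 8 genes tested and for 10.3% of all genes. The log2 fold change of cKO-Eed-MADM against control-MADM was 2.89 (SE 0.54, adjusted p = 0.0612), the opposite sign of that at E16.5. In yellow and red cells of this age the control-MADM libraries held 68.4 and 96.5 CPM of Pou3f1 and those of cKO-Eed-MADM 100.2 to 152 CPM, and the fold change was 0.61 (SE 0.39, adjusted p = 0.517). Control-MADM replicate 1 held 29 reads of the gene and replicate 3 held 194. Without control replicate 3 the gene passed in edgeR in cKO-Eed-MADM (4.45, adjusted p = 0.00325) and in Eed-MADM (3.50, adjusted p = 0.0199), with 1 control library left. Between cKO-Eed-MADM and Eed-MADM, where 0.0223% of all genes passed, none of the 8 did, none had an unadjusted p under 0.05, and DESeq2 called none. Inhba, with 0 to 9 reads per library, was not tested.

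Whether the difference itself changed from E16.5 to P0 was tested as an interaction. Pou3f1 was the only one of the 9 to pass, where 1.17% of all genes did in either direction. Its fold change between cKO-Eed-MADM and control-MADM moved by -1.47 log2 units (SE 0.38, adjusted p = 0.0419). The mean of control-MADM went from 287 to 359 CPM and that of cKO-Eed-MADM from 126 to 57.6 CPM. The call was lost in 11 of the 16 fits without 1 library (fold changes from -1.31 to -1.60, adjusted p from 0.0519 to 0.141), namely without control-MADM replicates 1, 2 or 3 at E16.5 and 1 or 6 at P0, and without cKO-Eed-MADM replicates 2, 3 or 4 at E16.5 and 1, 3 or 4 at P0. For Rorb the difference moved by 1.86 (SE 0.50, adjusted p = 0.0523) and for Pou3f3 by -0.78 (SE 0.23, adjusted p = 0.0885). For Eed-MADM no member passed this test, where 0.0215% of all genes did, none had an unadjusted p under 0.05, and DESeq2 called none.

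The ratio of Cux1 to Bcl11b, the gene of the deep-layer factor CTIP2, had lower means in cKO-Eed-MADM than in the other 2 paradigms at E13.5, E16.5 and P0 but not at E12.5. No comparison passed 0.05 after adjustment. In every comparison at E13.5, and between cKO-Eed-MADM and control-MADM at E16.5, libraries were too few for the exact test to reach 0.05. At E12.5 the difference in log2 ratio was 0.30 against control-MADM and 0.50 against Eed-MADM, and at E13.5 it was -1.31, with 4 of 4 libraries below both controls, and -0.50. At E16.5 the ratio ranged from 1.74 to 2.72 in control-MADM, from 1.19 to 3.73 in Eed-MADM and from 0.566 to 0.783 in cKO-Eed-MADM, with 4 of 4 mutant libraries below all control libraries. The difference in log2 ratio was -1.66 against control-MADM (exact permutation test, two-sided, p = 0.0571, the smallest that 4 against 3 libraries allow, adjusted p = 0.171). Against Eed-MADM it was -1.42 (exact permutation p = 0.0159, the smallest that 4 against 5 libraries allow, adjusted p = 0.101). At P0 the ratio ranged from 3.00 to 8.25 in control-MADM, from 2.90 to 5.55 in Eed-MADM and from 1.25 to 3.35 in cKO-Eed-MADM, so that the groups overlapped. The differences were -1.11 against control-MADM (exact permutation p = 0.0476, adjusted p = 0.171) and -0.86 against Eed-MADM (exact permutation p = 0.0168, adjusted p = 0.101). The adjustment was over the 12 comparisons made, 3 at each age. Bcl11b itself averaged 66.7 ± 9.18 CPM in control-MADM at P0 (mean ± SD), against 78.1 ± 13.3 CPM in Eed-MADM and 72.2 ± 26.0 CPM in cKO-Eed-MADM.

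**Figure D3:**
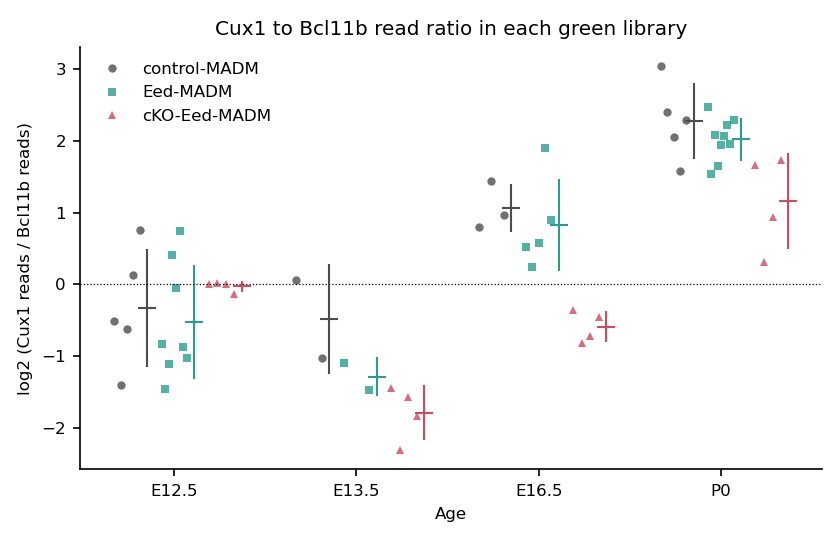
Log2 ratio of Cux1 to Bcl11b reads in each green library by age and paradigm, with 1 point per library and the mean and SD of each group. At E16.5 the 4 cKO-Eed-MADM libraries (ratios of 0.566 to 0.783) lie below all others, and at P0 they reach from 1.25 to 3.35 and overlap with the other 2 paradigms.

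The 9 genes were set beside other lists of the tissue. Among all genes 6.16% rose and 2.42% fell between cKO-Eed-MADM and control-MADM at E16.5, and 14.2% rose and 10.0% fell at P0. A further 22 genes of upper-layer and callosal neurons did not move as one list. At E16.5, 4 of the 20 tested fell and 1 rose between cKO-Eed-MADM and control-MADM, and at P0 6 of 21 fell and 5 rose, with medians of -0.23 and -0.05. Lhx2, the gene of a LIM-homeobox factor, fell at both ages (-1.24 and -1.85), as did Epha3, an ephrin receptor gene (-1.87 and -1.17), and Cited2, the gene of a transcriptional coactivator (-0.76 and -1.49). Dkk3 rose at both ages (1.79 and 0.90), and Plxnd1, Ptn, Gfra2 and Rspo1 rose at P0 (from 1.14 to 3.04). Of 12 deep-layer genes, 2 rose and 1 fell at E16.5, and 4 rose and 1 fell at P0. Crym rose most (4.74 and 5.84), Zfpm2 rose at both ages (1.71 and 1.70), and Fezf2, the selector of subcerebral neurons, and Foxp2 rose at P0 (1.00 and 1.17). Sox5 fell at E16.5 (-1.12) and Tbr1 at P0 (-0.77). The median over the deep-layer list was -0.16 at E16.5 and 0.40 at P0.

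Of 12 general neuron genes 3 rose and 3 fell at E16.5, and 2 rose and 5 fell at P0. Neurod6, a factor of excitatory cortical neurons, averaged 1747 CPM in control-MADM and 653 CPM in cKO-Eed-MADM at E16.5, and 584 and 110 CPM at P0. Tubb3, a pan-neuronal tubulin, went from 3177 to 1540 CPM at P0. Of 10 radial glia genes 2 and 4 rose and none fell. Of the intermediate progenitor genes 2 of 6 fell at E16.5 (Eomes and Neurog2), and at P0 3 of 5 fell and 2 rose.

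Most lists of other cells held genes that differed between cKO-Eed-MADM and control-MADM. Of 7 interneuron genes tested at E16.5, 6 rose, and the summed level of the list of 8 was 282 to 531 CPM in cKO-Eed-MADM against 14.0 to 35.9 CPM in control-MADM. At P0 it was the reverse, with 4 of 8 lower (204 to 278 CPM against 384 to 920 CPM). The microglia list of 8 genes summed to 13.46 to 57.4 CPM against 2.62 to 7.07 CPM at E16.5 (2 of 5 tested rose, with Csf1r and Trem2 at 0 in control-MADM) and to 148 to 343 CPM against 6.01 to 32.9 CPM at P0 (7 of 7 rose). The 6 meningeal genes summed to 14.0 to 30.1 CPM against 4.81 to 10.0 CPM at E16.5 (1 of 3 rose, with Lum at 0 in control-MADM) and to 95.3 to 238 CPM against 8.51 to 16.04 CPM at P0 (5 of 5 rose). Cajal-Retzius and subplate genes rose in 3 of 5 and 4 of 5 cases, with sums of 576 to 865 CPM against 88.3 to 135 CPM at E16.5, where Cplx3 was at 0 in control-MADM, and of 360 to 1064 CPM against 127 to 185 CPM at P0. Astrocyte and oligodendrocyte genes rose in 5 of 9 cases at E16.5, with sums of 226 to 771 CPM against 96.6 to 133 CPM and Sox10 at 0 in control-MADM, and in 4 of 10 at P0, with sums of 2210 to 4913 CPM against 1328 to 3513 CPM. Of 5 red blood cell genes 1 rose at E16.5, with sums of 6.61 to 459 CPM against 20.96 to 50.8 CPM, and none passed at P0. The single endothelial gene tested did not pass at either age. The 7 endothelial genes summed to 2.27 to 8.24 CPM against 1.63 to 3.96 CPM at E16.5 and to 13.9 to 45.1 CPM against 2.35 to 17.5 CPM at P0, with Tek at 0 in both paradigms at both ages. The part of these other cells in the lower levels of the 9 genes was not tested.

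**Figure D4:**
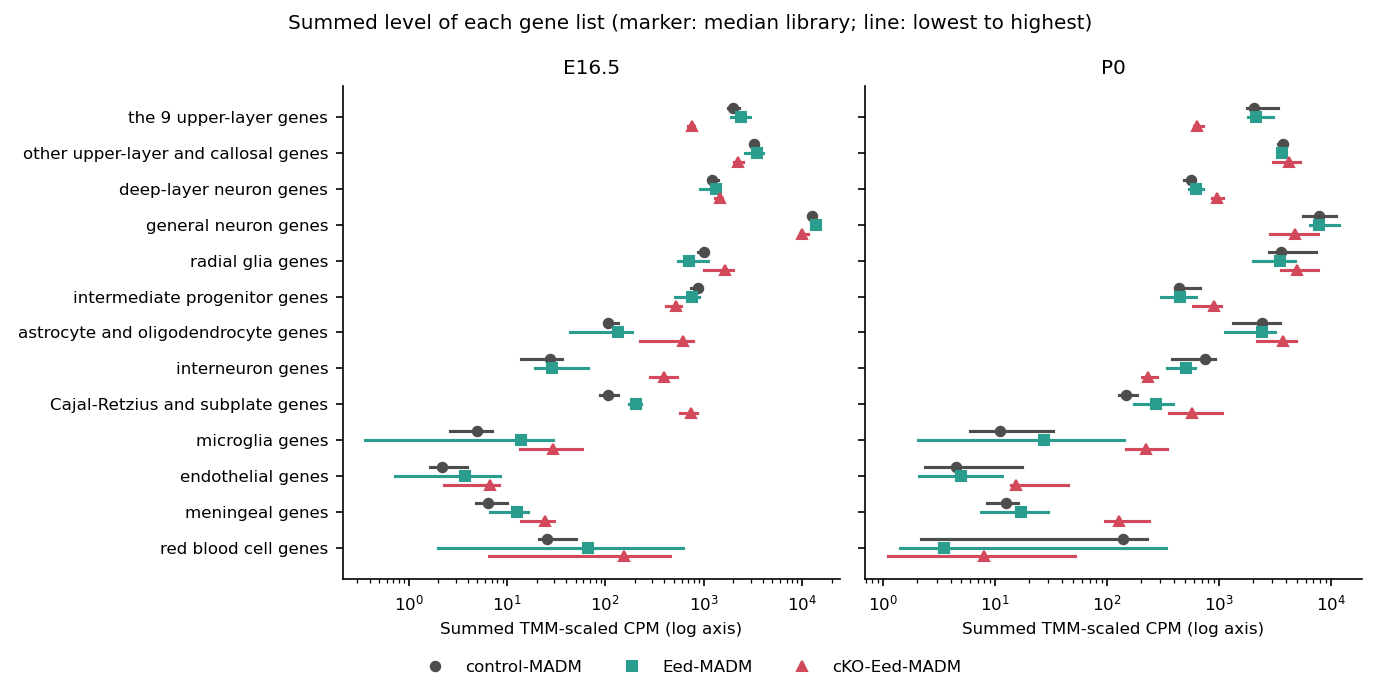
Summed level of each gene list (TMM-scaled CPM, log axis) in green libraries at E16.5 and P0, with a marker at the median library and a line from the lowest to the highest. The 9 upper-layer genes sum to 701 to 799 CPM in cKO-Eed-MADM against 1772 to 2272 CPM in control-MADM at E16.5 and to 600 to 722 CPM against 1766 to 3349 CPM at P0, while the microglia and meningeal lists lie higher in cKO-Eed-MADM.

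Yellow and red libraries of the same paradigms were compared in the same way with color as a term of the fit. In these colors too, cKO-Eed-MADM cells are Eed-/- and control-MADM cells Eed+/+. The yellow and red libraries may come from the same pools of cortices as the green ones and are then no separate animals. Those of Eed-MADM were in the fit as a group of their own. Their color goes with genotype (red Eed+/+, yellow Eed+/-), so at E13.5 and P0 the color term also draws on that difference. At E16.5 (2 cKO-Eed-MADM and 3 control-MADM libraries) 8 of the 9 genes fell, all but Rorb, where 2.09% of all genes did. The call of Inhba (-1.60, SE 0.44, adjusted p = 0.0425) was lost without the red control-MADM replicate 1 or either cKO-Eed-MADM library (adjusted p from 0.0709 to 0.183). Both cKO-Eed-MADM libraries were red, so that with color in the fit the yellow control library adds nothing to the fold change. Without color in the fit the calls of Pou3f2 (-1.26, adjusted p = 0.200), whose groups overlapped, and Inhba (-1.24, adjusted p = 0.279) were lost. Cux1 was at 110 to 137 CPM against 353 to 450 CPM (-1.76, SE 0.16, adjusted p = 1.26e-05), and Unc5d at 29.7 to 37.8 CPM against 110 to 199 CPM (-2.24, SE 0.23, adjusted p = 4.55e-05). At P0 (3 against 4 libraries) 6 fell, where 0.142% of all genes did. Cux2 had the largest fold change (-2.65, SE 0.30, adjusted p = 0.00810), while Pou3f2 was at -2.31 (SE 0.48, adjusted p = 0.0703). The calls at P0 rest on single libraries: none was left without the yellow cKO-Eed-MADM replicate 2, 1 without the red cKO-Eed-MADM replicate 2 or the yellow control-MADM replicate 1, and 3 without the red control-MADM replicate 1. Rorb was at 25.1 to 58.3 CPM in cKO-Eed-MADM against 2.04 to 35.1 CPM, with overlap (1.13, SE 0.70, adjusted p = 0.613).

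At E13.5 (4 cKO-Eed-MADM libraries and 2 of control-MADM) Unc5d rose in yellow and red cells, the only one of the 9 to pass where 0.960% of all genes rose. It was at 9.29 and 12.8 CPM in control-MADM and at 89.2, 91.6, 62.9 and 50.4 CPM in cKO-Eed-MADM (2.64, SE 0.40, adjusted p = 0.00437), and without the red control-MADM replicate 1 the fold change was 2.16 (adjusted p = 0.0540). In green cells of the same age it was at 10.4 and 47.9 CPM in control-MADM and 43.3, 41.2, 37.1 and 60.6 CPM in cKO-Eed-MADM, with overlap (0.65, SE 0.49, adjusted p = 0.737).

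Over the 38 green libraries of E13.5, E16.5 and P0, the log2 CPM of the 9 genes moved together to different degrees, with Pearson's r between pairs from 0.378 (Cux1 and Rorb) to 0.948 (Cux2 and Pou3f3). These libraries share their ages and paradigms, so r describes the pattern of groups as much as single libraries. Each gene was compared with 13925 others. The patterns most like that of Pou3f1 were those of Nfix (r = 0.938) and Nav3 (r = 0.92), and the patterns most like that of Mef2c were those of Dok5 (r = 0.925) and Arpp21 (r = 0.921). Cux2 and Pou3f3 were most like each other, and next came 9130024F11Rik for Cux2 (r = 0.944) and Pantr1 for Pou3f3 (r = 0.942). Pou3f2 was most like Cux2 (r = 0.908) and Unc5d (r = 0.906), and Unc5d most like 9130024F11Rik (r = 0.91) and Pou3f2. Cux1 was most like Pantr1 (r = 0.865) and Pam (r = 0.858). Pantr1, a noncoding RNA that neighbours Pou3f3, averaged 499 ± 67.2 CPM in control-MADM (mean ± SD, n = 5) and 105 ± 11.7 CPM in cKO-Eed-MADM (n = 4) at P0. Inhba was most like Scn2a (r = 0.858) and Prkar1b (r = 0.855), and Rorb most like Ptprz1 (r = 0.835) and Cadm2 (r = 0.827), the lowest of these values.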

How the data were processed

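The deposited files hold read counts per gene for each library, made by the authors with STAR, with multimapping reads dropped. The submitters' processing notes name STAR and mm10 (GRCm38). For the annotation release, the sources used here give nothing, and 53274 of 53379 gene identifiers matched GENCODE M21, which gave symbols, positions and exons. The count column that ignores strand was used, since 49.6% to 51.4% of counted reads fell on the first strand. Reads on no gene or on more than 1 gene (13.4% to 40.1% of uniquely aligned reads) were left out. No per-sample column was set aside (0).

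Paradigm, age, color and replicate number came from the labels. For each age, the green libraries of the 3 paradigms entered one fit in edgeR 4.0.16 (R 4.3.3): TMM factors, a robust quasi-likelihood test in its legacy form, and Benjamini-Hochberg adjustment over all genes tested, called at an adjusted p under 0.05. A gene was tested if its count averaged above 1 at E12.5 and above 10 at the later ages, as in the study's methods. Changes between ages and their differences came from one fit over E13.5, E16.5 and P0. Levels in CPM use TMM factors over all 55 green libraries used, so they can differ slightly from the fold changes of a single age. Correlations used log2 CPM with a prior count of 2. The ratio of Cux1 to Bcl11b was taken on counts plus 0.5 reads and tested by exact permutation over libraries (SciPy 1.17.1, Python 3.11.15). Sequences before gene starts are from RefSeq. Other alternatives were DESeq2 1.42.0, its size factors in edgeR, no filter or edgeR's own filter on counts, a looser threshold, all green libraries, the newer form of the test, other samples in the fit, the replicate number as a block, and leaving out each library of a group of 2 to 5. After seeing the data, a fit without TMM factors and fits without Eed-MADM replicate 9 at E12.5 or replicate 1 at P0 were added. The tests were tried on simulated data first.

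The 9 genes and the other lists were chosen with earlier results of these data known. All 9 were named in every comparison, with up to 3 genes of each other list by lowest adjusted p, the 2 genes most like each of the 9, and the genes that overlap them. Further genes of those lists (Dkk3, Plxnd1, Ptn, Gfra2, Rspo1, Foxp2, Tbr1 and the markers listed at 0) were named after their values were seen.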

Additional observations from a re-analysis of the deposited data

Results flagged for a closer look

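Chance puts the highest or lowest library of a group far from the rest, by Dixon's criterion, in about 1 in 20 groups, and 11 of the 81 groups of 4 to 10 green libraries tested for the 9 genes had such a library. Values are TMM-scaled CPM, beside that of the next library. At P0, Eed-MADM replicate 1 had 920 CPM of Mef2c (next 559) and 24.9 CPM of Inhba (next 12.4), and it was the highest of 9 Eed-MADM libraries for 6 of the 9 genes. Control-MADM replicate 1 had 514 CPM of Pou3f1 at P0 (next 345) and was the highest of 5 for 7 of the 9. At E16.5, cKO-Eed-MADM replicate 3 had 100.3 CPM of Cux1 (next 120), and Eed-MADM replicate 1 had 81.9 CPM of Rorb (next 39.3).

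At E13.5, cKO-Eed-MADM replicate 1 had 72.4 CPM of Mef2c (next 56.8), and replicate 3 had 0.186 CPM of Inhba, a single read where the other 3 libraries had none. At E12.5, Eed-MADM replicate 9 had 330 CPM of Pou3f1 from 461 reads (next 43.9), cKO-Eed-MADM replicate 3 had 90.9 CPM of Cux2 (next 48.1), control-MADM replicate 3 had 26.0 CPM of Inhba from 43 reads (next 3.90) and Eed-MADM replicate 7 had 10.1 CPM of Inhba from 19 reads (next 2.92).

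The fold change of Pou3f1 between cKO-Eed-MADM and control-MADM differed between the 2 later ages, by -1.47 log2 units from E16.5 to P0 (edgeR interaction, adjusted p = 0.0419). This call was lost in most edgeR fits without 1 library. It was also lost with DESeq2 size factors (adjusted p = 0.0505), the replicate block (0.0671), all green libraries (0.438) and E12.5 in the fit (0.817).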

How the results depend on the processing

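Few libraries at E13.5 (2 for control-MADM and 2 for Eed-MADM) and low counts of Inhba and Rorb limit the calls. Leaving out 1 control library at E13.5 leaves 1, which is then assumed to vary like the other groups.

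Between cKO-Eed-MADM and control-MADM at E13.5, 1 of the 9 genes (Pou3f1) passed at an adjusted p under 0.1, in DESeq2, without the filter, with all green libraries and with the newer form of the test, and 0 as reported. Between Eed-MADM and control-MADM it was 1 at E13.5 without the filter or with all green libraries (Pou3f1), and 1 at E16.5 (Mef2c) at an adjusted p under 0.1, in DESeq2, without the filter and in the newer form of the test. In control-MADM, 1 (Pou3f3) passed between E16.5 and P0 at an adjusted p under 0.1, in DESeq2 and with its size factors. The difference in age change between cKO-Eed-MADM and control-MADM held for 3 genes at an adjusted p under 0.1, for 2 in DESeq2 and without the filter, and for 0 with all green libraries or with E12.5 in the fit. With its size factors Pou3f1 was at -1.43 (adjusted p = 0.0505) and Rorb at 1.90 (adjusted p = 0.0468). With all yellow and red libraries 3 genes passed at P0, 1 passed at E16.5 and 0 at E13.5. For single genes, Rorb fell at E16.5 without the filter (-1.05, adjusted p = 0.00696). Mef2c did not pass at P0 without the filter (adjusted p = 0.0734) or with all green libraries (0.0631), and neither did Rorb with the 2 groups alone (0.0512). No fold change of the 9 genes that passed changed its sign in these fits. With all green libraries the median fold change of all genes at E13.5 moved to 0.34 (log2) between cKO-Eed-MADM and control-MADM, so that values of that fit are relative to it.

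The replicate numbers were not used to pair libraries in the reported fits. Libraries of equal number correlated from -0.297 to 0.335 in their deviations from the group means. In no comparison did every such pair exceed 0.1, but 3 of 4 did between Eed-MADM and control-MADM at E12.5. With 1 to 5 pairs per comparison, these values cannot decide whether equal numbers mark a pairing. With the number as a replicate block, 1 gene passed between cKO-Eed-MADM and control-MADM at E13.5 (Pou3f1, 3.23, adjusted p = 0.00278), 0 passed in the difference of age change (Pou3f1, -1.60, adjusted p = 0.0671), and Rorb did not pass at P0 (0.77, adjusted p = 0.0581).

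Leaving out 1 library in turn, the number of the 9 genes called between cKO-Eed-MADM and control-MADM was 0 to 1 at E13.5, while E16.5 gave 7 and P0 gave 6 to 8. Between cKO-Eed-MADM and Eed-MADM it was 8 at E16.5 and 6 to 7 at P0. Between Eed-MADM and control-MADM it was 0 to 1 at both E13.5 and E16.5. Between ages in control-MADM it was 7 to 9 from E13.5 to E16.5, 0 to 1 from E16.5 to P0 and 7 to 9 from E13.5 to P0, and 0 to 2 for the difference of age change. In yellow and red libraries it was 0 to 1 at E13.5, while E16.5 gave 7 to 8 and P0 gave 0 to 7. The log2 ratio of Cux1 to Bcl11b differed by -1.79 to -1.47 at E16.5 and by -1.31 to -0.83 at P0 between cKO-Eed-MADM and control-MADM.

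Counts over all genes moved more, and the cause was not tested. The reported count is given first, then those in DESeq2 and without the filter. For cKO-Eed-MADM against control-MADM they were 0, 6 and 117 at E12.5, while E13.5 gave 5, 289 and 250 (243 with all green libraries, 71 at an adjusted p under 0.1, 61 in the newer test, 25 with the 2 groups alone, 12 with the block, 0 without TMM factors). For Eed-MADM against control-MADM they were 0, 40 and 47 at E13.5 (415 with all green libraries), 34, 231 and 272 at E16.5, and at P0 248 and 608 in DESeq2 (101 with the block). For cKO-Eed-MADM against Eed-MADM they were 0, 1 and 175 at E12.5 (94 in the newer test) and 3, 56 and 38 at E13.5, with 940 and 1443 (no filter) at E16.5. For the difference of age change they were 163, 300 and 487 (27 with all green libraries, 39 with E12.5 in the fit, 92 with the block), and 3, 44 and 172 in Eed-MADM. With E12.5 in the fit, 2194 genes became 1234 between E13.5 and E16.5, and 1960 became 1031 between E16.5 and P0 (631 with all green libraries). In yellow and red libraries DESeq2 called 740 for 312 at E13.5 and 530 for 52 at P0, and all such libraries gave 22, 388 and 13 for 312, 1006 and 52 (119, 651 and 89 without color in the fit).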
